A study of Mus musculus with 24 samples.

Results

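The hippocampal CA1 of mice at rest was described from the 6 libraries of naive control animals, out of 24 libraries in the whole series. These 6, numbered 1 to 6 by their labels, were chosen by their label alone. The animals were C57BL/6J mice aged 3 to 5 months. They carried loxP-flanked alleles of the acetyltransferase gene Kat2a (genotype Kat2a fl/fl), no Cre driver is given for them, and they had no exposure before the CA1 subfield was dissected and its polyadenylated RNA sequenced. The rest of the series held 5 libraries of the same genotype after 15 min of novelty, and 6 naive and 7 novelty-exposed libraries of Kat2a fl/fl mice that also carried Cre driven by CamKII-alpha, a promoter of forebrain excitatory neurons. Those 18 libraries were used here only to see whether the same genes varied within other groups. The labels do not say whether each library came from a separate mouse or from pooled tissue.

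CA1 is the pyramidal cell field through which most signals leave the hippocampus, and it takes its main input from CA3. Its glutamatergic pyramidal neurons sit among GABAergic interneurons, astrocytes, oligodendrocytes, microglia and vessels, and a dissected piece of it lies next to CA2, CA3, the dentate gyrus, the subiculum, the meninges and the ventricle wall. Synapses onto CA1 neurons store memory traces through calcium entry, calmodulin and CaM kinase II, and novelty switches on immediate early genes there. In bulk tissue, fewer cells of a type and less RNA per cell cannot be told apart.

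The 6 libraries held between 10700954 and 23374924 reads assigned to genes. A level is given in CPM, the reads of a gene scaled to 1000000 assigned reads of its library, as mean ± SD over the 6 libraries, and a level per kb is that value divided by the summed length of the gene's exons. Of 38355 listed genes, 24912 had a read in at least 1 library, 18530 in all 6, and 14258 reached 1 CPM in all 6. The order of genes was close in all pairs of libraries (Spearman rho 0.985 to 0.997 across genes, which are not independent replicates). Library 2 was the shallowest and stood apart along a first principal component that held 46.5% of the variance. Its levels followed the GC content of the genes, with a slope of -0.24 (log2 per 10 points of GC) against -0.02 to 0.12 in the other libraries. Library 3 was set apart along the second component, with 18.4% of the variance. Variation between libraries is given as the excess CV, the CV of a gene's share of reads after the variance expected from counting reads is taken off, for the 13062 genes whose raw counts averaged 50 or more (the ranked genes). Over all ranked genes, libraries 1 to 6 were the highest for 17.7, 28.6, 9.86, 19.8, 10.4 and 13.6%, and the lowest for 10.7, 32.7, 13.0, 14.4, 13.3 and 15.9%.

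Reads were spread over many genes. The 10 highest genes of a library took 2.90 to 3.29% of its reads, the highest 1000 took 46.5 to 47.5%, and between 1127 and 1184 genes were needed to reach 50% of the reads. The largest number of reads came from Camk2a (3923 ± 169.6 CPM), the alpha subunit of CaM kinase II, then from Kif5a (3684 ± 317), a kinesin motor of axonal transport, and Slc1a2 (3576 ± 418), the main glutamate transporter of astrocytes. Camk2a was lowest at 3621, had a median of 3952 and was highest at 4070.0 CPM, so no library departed far from the rest. Cpe, a carboxypeptidase that matures neuropeptides, and Snap25, a SNARE protein of vesicle fusion, had 2957 ± 71.3 and 2831 ± 234 CPM.

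Long transcripts give more reads, so genes were compared with each other per kb. On this scale the calmodulin gene Calm2 led with 1374 ± 106 CPM per kb. Next among protein-coding genes were Cpe with 1133 ± 27.3, Sparcl1, a secreted matrix protein of astrocytes and neurons, with 810.1 ± 26.8, Atp1b1, the beta subunit of the sodium pump, with 779 ± 28.6, and Eef1a1, the elongation factor of translation, with 769.6 ± 14.1. Atp1b1 and Eef1a1 differed by less than their SDs. Cst3, a secreted protease inhibitor, and Tmsb4x, an actin-binding peptide, reached 759 ± 68.3 and 704 ± 31.3 CPM per kb. Camk2a, first by reads, stood at place 18 with 526 ± 22.7, and Kif5a at place 17 with 527 ± 45.3. The leading 30 by reads and the leading 30 per kb shared 17 genes. With the length of the longest transcript in place of all exons, 22 of the leading 30 per kb stayed among the leading 30, and Snap25 moved from place 28 to place 3. The third place, RP23-81C12.3, and 4 short processed pseudogenes among the 30 are taken up below.

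**Figure D1:**
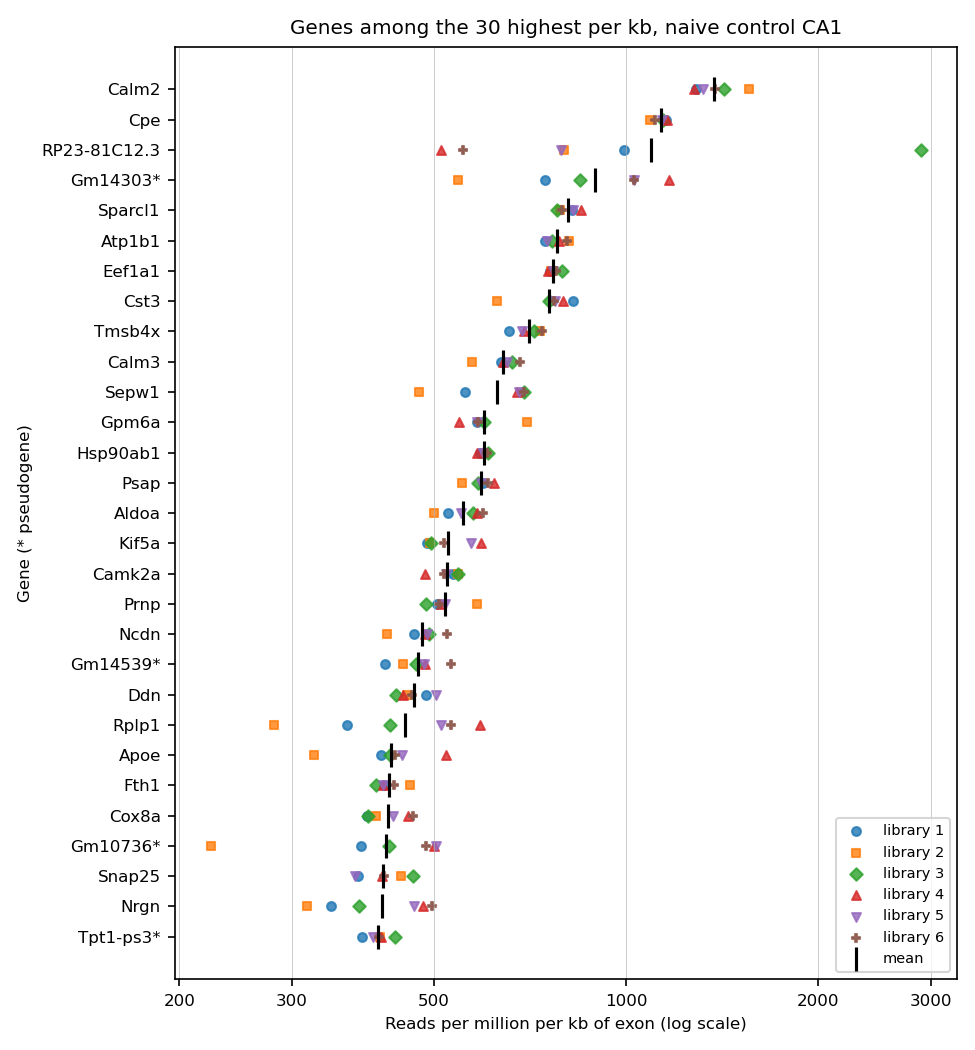
Level per kb of exon (CPM per kb, log scale) of genes among the 30 highest, with 1 point per library and a bar at the mean of 6. Most genes differ little between libraries, Calm2 and Cpe lie at the top, and RP23-81C12.3 is far higher in library 3 than in the others.

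Calcium that enters through NMDA receptors binds calmodulin, which activates CaM kinase II and the phosphatase calcineurin. All 14 listed genes reached 1 CPM in all libraries, and together they took 1.73% of all reads. The calmodulin gene Calm3 stood at 642 ± 36.5 CPM per kb, Camk2b, the beta subunit, at 107, and the gamma and delta subunits Camk2g and Camk2d at 33.7 and 3.06. Nrgn, a calmodulin buffer of dendritic spines, reached 415 and Ppp3ca, the catalytic subunit of calcineurin, 249 CPM per kb. Camk4, a nuclear CaM kinase, stood at 64.2 and its activator Camkk1 at 47.9.

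Of the transmitter receptors, the AMPA receptor subunits Gria1 and Gria2 reached 219.5 ± 17.8 and 86.0 ± 7.71 CPM per kb, and Gria3 and Gria4 37.6 and 15.1. The obligatory NMDA receptor subunit Grin1 stood at 31.1, above its partners Grin2b at 7.44 and Grin2a at 3.35. Grin3b was close to no reads, with at most 0.0625 CPM in a library. Among 13 GABA-A receptor subunits, Gabra5, which forms extrasynaptic receptors typical of CA1, had 86.3 ± 8.13 CPM per kb. Gabra6, a subunit of cerebellar granule cells, had at most 0.131 CPM in a library. The muscarinic receptor Chrm1 led the receptors for acetylcholine and monoamines with 38.4 CPM per kb, while the serotonin receptor Htr1a had 10.8 and the dopamine receptor Drd5 4.29. Drd3 and Drd4 stayed at or under 0.181 CPM in every library.

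Genes of vesicle release took 1.77% of reads over 21 genes, and those of glycolysis and ATP supply 1.59% over 22. Synaptic vesicle genes were led per kb by Snap25 (417) and Cplx2 (334), a complexin that clamps fusion. The postsynaptic group was led by Ddn, dendrin, with 465 ± 25.5 CPM per kb, while the scaffold gene Dlg4 (PSD-95) stood at 53.2. The neuropeptide precursors were led by Sst (315 ± 66.6 CPM per kb), Chgb (185) and Cck (138), and Gal, the galanin precursor, was near no reads with at most 0.187 CPM. The 28 measured subunits of the SAGA and ATAC coactivator complexes, the complexes of Kat2a, summed to 1677 ± 16.1 CPM. The CV of that sum, 0.959%, was the smallest of the 43 lists described. Taken singly, these genes had a median excess CV of 5.03%, against 6.55% over all ranked genes. Kat2a itself was lowest at 57.9, had a median of 62.2 and was highest at 69.4 CPM. Its paralogue Kat2b stood at 4.47 CPM per kb against 18 ± 1.19 for Kat2a.

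Several genes that are abundant in most tissues had few counted reads. Gapdh, a glycolytic enzyme often used as a reference, had only 8.81 ± 0.674 CPM and took place 11103 per kb, while the other glycolytic enzymes Aldoa, Pkm and Tpi1 had 556, 273 and 245 CPM per kb. Gapdh has 35 other listed genes whose transcripts match its own over at least 300 bases at 95% identity or more. For Aldoa, Pkm and Tpi1 0 were found in a search with the longest transcript of each gene. Ppia, cyclophilin A, has 11 such copies and had 7.31 CPM, or 2.08 per kb. The ribosomal protein gene Rps16, with 3 copies, had 4.58 ± 2.3 CPM, while its processed pseudogene Rps16-ps2 had 102 CPM. Over the glycolysis and ATP supply list, the 8 genes with a copy had a median of 55.6 CPM per kb and the 14 without one 238. Over the ribosomal proteins the order was the other way, with medians of 20.8 for 45 genes with a copy and 13.7 for 27 without. The search could miss copies. For Rps12 (4.46 CPM) 0 were found, although a transcript of Rps12-ps3 matched it at 100% over 494 bases. Both comparisons of genes with and without a copy are therefore uncertain. Reads that match more than 1 place were counted for no gene. Their entry held 15.8 to 18% of all counts per library, and whether it counts reads or alignments was not given. The low levels of genes with near-identical copies are therefore uncertain, and so is the high rank of the short pseudogenes Gm14303, Gm14539, Gm10736 and Tpt1-ps3.

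Protein-coding genes took 97.3 ± 0.199% of assigned reads, processed pseudogenes 1.04 ± 0.0626%, long intergenic noncoding RNAs 0.775 ± 0.186% and antisense genes 0.159 ± 0.00600%, by the biotypes of GENCODE M21. Libraries were not prepared to mark the strand, so reads of an antisense gene and of the gene opposite to it cannot be told apart. Of the noncoding genes, Meg3, a maternally expressed RNA of the Dlk1-Dio3 imprinted region, had the most reads with 2191 ± 501 CPM. After it came RP23-81C12.3 with 2000.4 ± 1654, 1700020I14Rik with 708 ± 62.3, Rian, a neighbour of Meg3 in the same imprinted region, with 597 ± 51.0, and Malat1, a nuclear RNA of speckles, with 547 ± 155 CPM. Bc1, a small cytoplasmic RNA of dendrites at chr7:144914471-144914541, listed as a miRNA by the authors' deposited biotypes, had 497 ± 272, and Miat 433 ± 90.7. Snhg11, a snoRNA host transcript that GENCODE lists as protein coding, had 1385 ± 297 CPM. RP23-81C12.3 is listed as a long intergenic noncoding RNA by the deposited biotypes. In RefSeq it overlaps a sequence related to ribosomal RNA over 1245 of its 1831 bases. It took 0.531% of reads in library 3, where the share of long intergenic noncoding RNAs was 1.09%. That share was 0.55 to 0.878% in the other libraries, so its mean and SD depend on how this entry is classed.

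Several long noncoding RNAs had the same highest and the same lowest library. Meg3 had 2898, 2031, 1922, 2310.1, 2523 and 1462 CPM in libraries 1 to 6. Snhg11 had 1873, 1445, 1209, 1408, 1397 and 977, and Malat1 760.2, 646, 610.2, 448, 487 and 329. Library 1 was the highest and library 6 the lowest for all 3, and Miat and Mirg had the same highest and lowest library. Among the 16 long noncoding RNAs ranked for variation, library 1 was highest for 9 (17.7% of all ranked genes) and library 6 lowest for 10 (15.9% of all), and 9 exceeded the 90th percentile of variation over all genes. Gas5 (103 ± 3.90 CPM), Snhg12 and Sox2ot varied little. The share of reads that fell in no gene was also highest in library 1 (9.95%) and lowest in library 6 (7.8%), with 9.56, 8.88, 8.36 and 8.73% in libraries 2 to 5, and its part in these levels was not tested.

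The 250 bases before the start of Meg3, Malat1, Snhg11 and Miat are shown because library 1 was the highest and library 6 the lowest for each of these RNAs. They are from RefSeq on GRCm38.p6, 5′ to 3′ on the strand of the gene, with matches to the motifs searched in capitals.
Meg3 chr12:109540746-109540995 (+): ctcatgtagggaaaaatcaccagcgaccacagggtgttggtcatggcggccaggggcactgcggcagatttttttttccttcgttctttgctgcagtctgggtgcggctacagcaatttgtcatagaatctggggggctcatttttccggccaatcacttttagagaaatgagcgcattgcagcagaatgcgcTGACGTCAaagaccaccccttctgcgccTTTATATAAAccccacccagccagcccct
Malat1 chr19:5802673-5802922 (-): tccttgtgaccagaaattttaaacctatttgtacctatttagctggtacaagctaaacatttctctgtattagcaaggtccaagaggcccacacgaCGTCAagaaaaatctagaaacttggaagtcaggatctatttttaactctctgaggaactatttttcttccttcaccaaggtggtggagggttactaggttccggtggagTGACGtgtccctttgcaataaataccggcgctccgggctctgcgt
Snhg11 chr2:158375463-158375712 (+): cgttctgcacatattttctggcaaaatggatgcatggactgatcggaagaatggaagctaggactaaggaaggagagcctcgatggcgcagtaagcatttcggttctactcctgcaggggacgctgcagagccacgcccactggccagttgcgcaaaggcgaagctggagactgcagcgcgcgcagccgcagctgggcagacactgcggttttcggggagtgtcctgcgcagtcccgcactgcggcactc
Miat chr5:112228949-112229198 (-): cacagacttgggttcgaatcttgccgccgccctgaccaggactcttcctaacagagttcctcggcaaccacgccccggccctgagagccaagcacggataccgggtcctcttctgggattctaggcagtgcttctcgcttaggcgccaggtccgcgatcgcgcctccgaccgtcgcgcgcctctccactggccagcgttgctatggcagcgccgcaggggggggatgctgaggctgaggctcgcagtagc
Searched on both strands were the cAMP response element TGACGTCA and its shorter form TGACG, which overlaps it, 2 exact forms of the serum response element, the Egr site GCGGGGGCG, the E-box CACGTG and the TATA box TATAAA. Meg3 held the full cAMP response element, present in 1.55% of 32851 promoters, and a TATA box, present in 12.4%. Malat1 held TGACG, present in 17.8%, and the windows of Snhg11 and Miat held none of these letters. RefSeq gives a second start for Meg3, whose window held none either.

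The defining markers of the labelled tissue were present. All 10 markers of CA1 pyramidal neurons reached 1 CPM in all 6 libraries and summed to 1559 ± 139 CPM. Per kb, Nov reached 117, Mpped1 102 ± 9.87, the endoplasmic reticulum protein gene Wfs1 50.5 ± 10.3 and Fibcd1 48.4 ± 7.8 CPM. Of the neighbouring fields, Cpne4 and Bok of CA3 stood at 14.3 and 11.9, and Prox1 and C1ql2 of dentate granule cells at 7.20 and 7.98 CPM per kb. The CA2 markers Rgs14 and Pcp4 reached 27.3 and 57.9, and Amigo2 4.72. The CA1 genes named lie above most of their list, whose median was 14.9 CPM per kb. The medians over the ranked genes of the CA2, CA3 and dentate lists were 4.72, 4.89 and 3.31.

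Glial and other neuronal types were all represented. Astrocyte markers summed to 6404 ± 504 CPM, led per kb by Slc1a2 (272) and the aldolase Aldoc (256), with the glutamate transporter Slc1a3 at 92.0 and the filament gene Gfap at 77.2. Oligodendrocyte markers summed to 5370.3 ± 123 CPM, and their CV of 2.29% was among the smallest. The myelin gene Mbp had 235 CPM per kb. For microglia, the complement gene C1qb stood at 43.2, and for interneurons the synthases of GABA, Gad1 and Gad2, at 51.0 and 40.0 CPM per kb. Endothelial and mural markers were low, with Cldn5 at 15.0 and Pdgfrb at 4.13. The globin Hbb-b1 stood at 17.2, and Slc4a1 of red cells at or under 0.125 CPM. Of the 9 striatal markers, 6 reached 1 CPM in all libraries and the list summed to 179.6 ± 7.85 CPM, with Six3 at or under 0.131. Of the 5 markers of immature neurons, 3 did so and the list summed to 37.6 ± 2.46 CPM, with Eomes at or under 0.361. All 6 libraries had Ddx3y of the Y chromosome (79.2 to 101 CPM), and Xist of the inactive X stayed at or under 0.374 CPM.

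**Figure D2:**
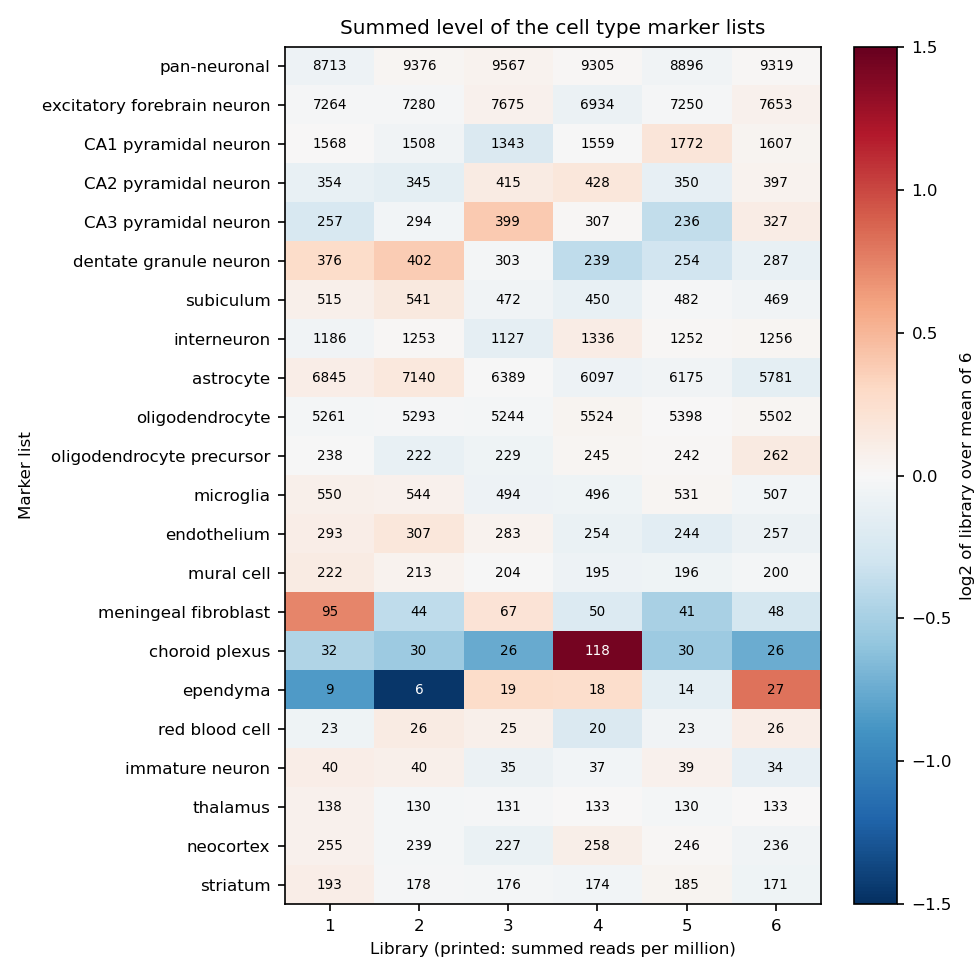
Summed CPM of 22 marker lists (lines) in libraries 1 to 6 (columns), printed in each field and coloured by the log2 ratio to the mean of the 6 libraries. The pan-neuronal, excitatory forebrain, oligodendrocyte and microglial lists are nearly even, those of CA3 and the dentate gyrus less so, and the choroid plexus list is far higher in library 4, the meningeal list in library 1.

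Markers of CA3 and of the dentate gyrus varied more between libraries than those of CA1, with CVs of their sums of 19 and 21.2% against 8.94%. CA3 markers summed to 257, 294, 399, 307, 236 and 327 CPM in libraries 1 to 6. Library 3 was the highest for 7 of the 8 CA3 genes ranked (9.86% of all ranked genes), and the lowest for 6 of the 10 CA1 genes (13.0% of all). Bok, a BCL2 family gene enriched in CA3, had 15.0, 14.7, 38.6, 22.7, 12.8 and 28.0 CPM. Dentate granule markers summed to 376, 402, 303, 239, 254 and 287, so that libraries 1 and 2 held more of them than libraries 4, 5 and 6. Prox1, the transcription factor that marks granule cells, had 76.1, 85.4, 56.7, 46.3, 43.7 and 54.2 CPM. Of the 10 dentate genes, 9 exceeded the 90th percentile of variation over all ranked genes, against 3 of 10 for CA1, 5 of 8 for CA3, 0 of 12 for astrocytes and 0 of 13 for oligodendrocytes. In CA2, Amigo2 and Ccdc3 were highest in library 3 and lowest in library 5 and varied with an excess CV of 43.7 and 50.9%.

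The choroid plexus list stood out in library 4 through Ttr, and the meningeal list in library 1. Ttr, transthyretin of the choroid plexus, had 1.12, 1.03, 1.16, 86.6, 3.79 and 1.08 CPM. Of the 3 choroid genes ranked for variation, only Ttr was highest in library 4 (19.8% of all ranked genes). Libraries 1 and 2 were each highest for 1 of them. Some choroid genes under the count minimum were also highest in library 4. Among these were Clic6 with 1.74, Slc4a5 with 1.13 and Otx2 with 0.611 CPM, each under 1 CPM in the other libraries. Without Ttr the choroid list summed to 30.9, 28.9, 24.7, 31.6, 26.3 and 25 CPM in libraries 1 to 6. Kl, which neurons express too, was even (21.1 ± 2.36 CPM). Meningeal fibroblast markers summed to 95.5, 44.4, 66.6, 50.2, 41.3 and 47.9, and library 1 was highest for 6 of the 7 genes ranked. The insulin-like growth factor gene Igf2 had 42.6 CPM there and at most 25.1 elsewhere, and the small proteoglycan gene Fmod had 7.69, 0.748, 4.71, 1.74, 1.73 and 1.44. Ependymal markers summed to 8.56, 5.61, 18.6, 18.4, 13.9 and 27.1 CPM, lowest in library 2 and highest in library 6. The cilium gene Ccdc153 had 0.750, 0.280, 2.78, 2.88, 1.67 and 5.84 CPM.

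Immediate early genes at rest ranged from near 0 to well above most genes. These genes encode transcription factors and synaptic proteins that neurons switch on within minutes of activity. Of 40 listed, 36 reached 1 CPM in all libraries. Per kb the kinase gene Plk2 was highest with 63.5, followed by Nr4a2 with 19.4, Spry2 with 18.9, Egr1 with 18.3 and the dendritic Arc with 17.6. Fos and Egr2 stood at 1.33 and 0.195. Fos had 3.31, 2.43, 1.97, 5.76, 2.95 and 2.41 CPM and Junb, its dimer partner, 8.19, 5.33, 8.0, 19.1, 13.8 and 14.6, so both were highest in library 4. Egr1 had 93.9, 75.3, 67.9, 86.5, 88.0 and 81.4 CPM, without such a peak. Of the 34 immediate early genes ranked for variation, 14 were highest in library 4 (19.8% of all ranked genes) and 12 lowest in library 3 (13.0% of all). The largest excess CVs of these 34 were those of Junb (44.4%), Ptgs2, cyclooxygenase-2 (42.1%), and Fos (41.2%). Ptgs2 was highest in library 3 (22.6 CPM), not in library 4. The sum of the list was even, 1305 ± 44.6 CPM. Library 4 also had the largest positive slope with GC content (0.121), whose part in its peaks was not tested.

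The windows before Fos and Junb are shown in the same way, since both genes were highest in library 4.
Fos chr12:85473640-85473889 (+): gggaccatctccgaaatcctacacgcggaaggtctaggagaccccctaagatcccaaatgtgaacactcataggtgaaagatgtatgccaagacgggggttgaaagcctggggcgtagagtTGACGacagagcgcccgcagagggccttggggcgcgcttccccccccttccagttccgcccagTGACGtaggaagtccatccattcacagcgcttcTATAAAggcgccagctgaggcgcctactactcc
Junb chr8:84978749-84978998 (-): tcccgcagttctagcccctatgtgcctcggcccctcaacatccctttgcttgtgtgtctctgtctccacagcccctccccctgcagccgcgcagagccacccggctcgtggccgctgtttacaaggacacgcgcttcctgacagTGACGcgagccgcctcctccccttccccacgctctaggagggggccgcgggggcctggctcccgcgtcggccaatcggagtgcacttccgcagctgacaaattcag
Fos held TGACG and TATAAA, and Junb held TGACG. Neither window held the exact letters of the serum response element searched, which 0.0609 and 0.07% of promoters hold. Bases further upstream than these windows were not searched, so a site there would have been missed.

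Glucocorticoid-responsive genes summed to 725 ± 57.4 CPM, with the metallothioneins Mt1 and Mt2 highest in libraries 4 and 6, respectively (164 and 102 CPM), and lowest in library 2 (82.8 and 56.3). Sgk1 and Fkbp5, induced by corticosterone, had 43.5 ± 5.39 and 52.2 ± 5.72 CPM. Clock genes summed to 1547, 1552, 1555, 1531, 1559 and 1444, and library 6 was the lowest for 7 of 18 (15.9% of all ranked genes). Genes of cholesterol synthesis varied with a CV of 2.66% in their sum. In the list of cytosolic ribosomal proteins, library 2 was lowest for 53 of 72 genes, and in that of the nuclear respiratory chain for 48 of 76, against 32.7% of all ranked genes. Library 2 is the library whose levels followed GC content most (slope -0.24). Libraries 4, 5 and 6 had slopes of the other sign (0.121, 0.0768 and 0.0749). The part of GC content in these lists was not tested.

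Over the 13062 ranked genes the median excess CV was 6.55% and the 90th percentile 15.7%. Only 633 genes (4.85%) exceeded 20%, and 32 exceeded 50%. For 1673 genes nothing was left above counting error. The 10 genes of smallest CV were taken from the 4368 with mean counts of 1000 or more. Among them Prosc, a vitamin B6-binding protein, had 66.2, 66.0, 65.1, 65.9, 65.7 and 65.6 CPM, and Cds2, an enzyme of phospholipid synthesis, 858, 855, 852, 829, 841 and 845. Also steady were Prepl (479 ± 4.76), Ipo5, an importin (217 ± 2.07), Kif3a, a kinesin (184 ± 1.47), Mia3 (144 ± 1.84), Camsap1 (126 ± 1.26), Ptdss1 (83.0 ± 0.989), Fam134c (79.3 ± 0.897) and Slc39a9, a zinc transporter (68.7 ± 0.882 CPM). Among the 30 genes with the most reads Hsp90ab1, a chaperone, and Eef1a1 had the smallest CVs, with 1796 ± 28.9 and 1919 ± 35.2 CPM.

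**Figure D3:**
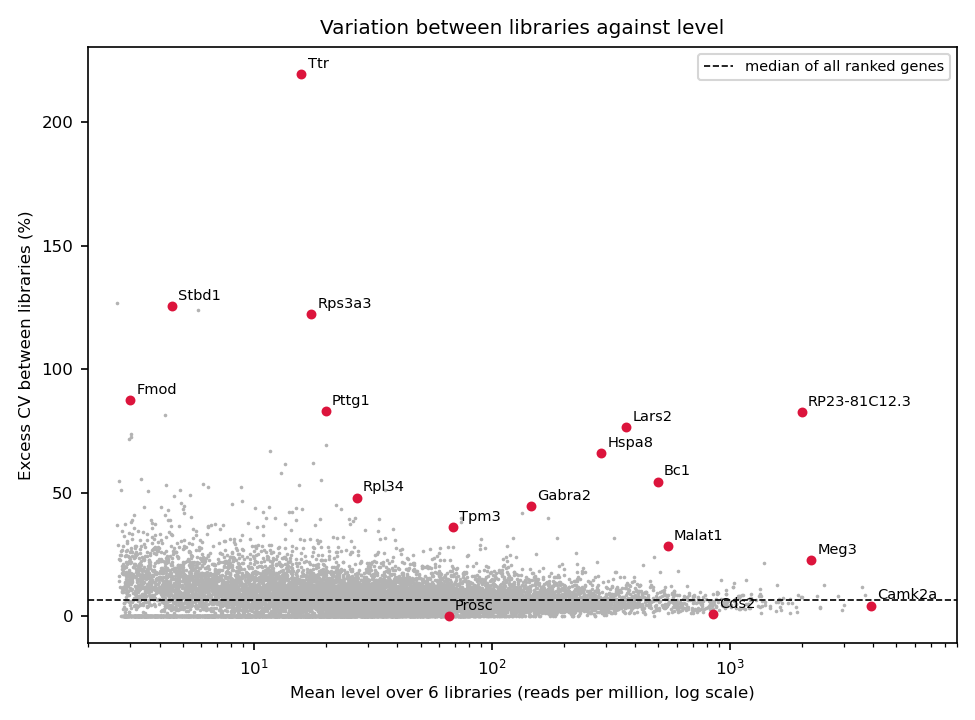
Excess CV (percent) against mean CPM (log scale) of the 13062 genes ranked, 1 point per gene, with the median of 6.55% dashed and genes named in the text in red. Most genes lie below 20%, and a few, from Ttr at 220% down, stand far above genes of like level.

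The 30 most variable genes with an established symbol fell into a few kinds. Ttr (220%) and Fmod (87.5%) are on the choroid plexus and meningeal lists. Aldh1a2, an enzyme of retinoic acid synthesis, was highest in library 1 as Fmod was (4.94 CPM, at most 4.11 elsewhere). Dsc3, a desmosomal cadherin, had 14.7, 4.77, 8.81, 4.58, 14.3 and 5.72 CPM, high in libraries 1 and 5. Bok, Amigo2 and Ccdc3 mark CA2 or CA3. Rps16 and Rpl34 encode ribosomal proteins. Pcsk1n, the precursor of a prohormone convertase inhibitor, had 27.2, 13.4, 23.4, 63.5, 37.0 and 47.4 CPM. The part of GC content in the order of these libraries was not tested. Cdh24, a cadherin, was high in library 6 alone (17.3 CPM), and without library 6 its excess CV was 7.79% instead of 46.8%. For Ecel1, an endopeptidase, it was 24.7% without library 6 and 44.4% with it. Tmem215 was above 3 CPM in libraries 3, 4 and 6 and near 1 in the others. Alpk1, Xlr3b, Ddx4, Prr7, Cd109, Vit, Sec14l3 and Agxt2l1 were all of low level, with means between 2.98 and 13.0 CPM. The excess CV of Agxt2l1 was 34.8% without library 3 and 53.5% with it.

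Of the 100 most variable genes, library 2 was the lowest for 39, near its share of 32.7% of all ranked genes, and library 3 the highest for 33, against 9.86% of all. Without libraries 2 and 3 together, a choice made after seeing the data, the median excess CV was 4.2% and 60 of the 100 genes stayed in the set. Predicted models and pseudogenes made up 25 of the 100, against 8.92% of all ranked genes. A near-identical copy was found for 16 of the 95 with a transcript in GENCODE, and for 8.37% of all ranked genes.

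The most abundant variable entry was RP23-81C12.3 at chr17:39846958-39848788. It had 1817, 1467, 5312, 939, 1451 and 1017 CPM in libraries 1 to 6, and library 3 lay far above the other 5. In RefSeq the same stretch overlaps Rn18s-rs5, a sequence related to 18S ribosomal RNA, over 1245 of its 1831 bases. Lars2, the mitochondrial leucyl-tRNA synthetase, had 364, 321, 909, 159.6, 279 and 158 CPM with the same highest library and the same 2 lowest. Without library 3 the excess CV of Lars2 was 36.6% instead of 76.6%. Gm15564, an antisense entry, and Gm24187 and Gm23935, both listed as miRNAs, were also highest in library 3, with 29.6, 9.37 and 10.7 CPM. In the other groups 3 of 18 libraries exceeded the middle of the gap for both RP23-81C12.3 and Lars2. Bc1 followed another order, with 218, 235, 641, 832, 737 and 320.1 CPM, and was highest in libraries 3, 4 and 5.

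Some genes differed in steps, with libraries in separate levels and nothing between. At least 1 log2 unit lay between neighbouring libraries for 42 genes, chosen for this pattern after their values were seen. A single library stood apart for 31 of them, most often library 3, which was alone lower for 6 genes and alone higher for 10. Pttg1, securin, had 16.0, 31.8, 35.6, 1.05, 0.223 and 35.2 CPM, so that libraries 4 and 5 were almost without it. Lyrm7, a mitochondrial assembly factor, had 10.4, 14.7, 14.7, 4.49, 4.96 and 11.2. Its gene is also on chromosome 11, with a start at base 54826866 against 43420250 for Pttg1. For 5830417I10Rik on chromosome 3 the levels were 22.2, 19.3, 34.4, 4.97, 5.79 and 19.7. All 3 were low in libraries 4 and 5. Wdfy1 and the pseudogene Gm11847 were low in libraries 3 and 6, with Wdfy1 at 41.2, 45.9, 18.1, 40.9, 39.0 and 15.1 CPM. Gabra2, a GABA-A receptor subunit, was not among the 42 genes. It had 131, 76.8, 62.6, 198, 201 and 206 CPM. The difference lay between libraries 2 and 3 on one side and 4, 5 and 6 on the other, with library 1 between.

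In library 3 the ribosomal protein gene Rpl34 had 1.67 CPM, against 25.3 to 35.8 in the others. Agxt2l1, its neighbour on chromosome 3, was also lowest there. So was Gm5148, far away on the same chromosome (start at base 37714190, against 130726831 for Rpl34). The glycogen-binding protein gene Stbd1 on chromosome 5 was high in library 3 (16.1 CPM, at most 2.71 elsewhere). The small heat shock protein gene Hspb8, also on chromosome 5, was low (4.28 CPM). Stbd1 starts at base 92603051 and Hspb8 at base 116408491. Without library 3 the excess CV of Rpl34 was 13.0% instead of 48.0%. AA465934 was low in library 5 alone, at 2.23 CPM, and Serpina3n, an acute phase gene of astrocytes, was lowest in library 6 at 48.3 against 109 to 197 CPM.

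**Figure D4:**
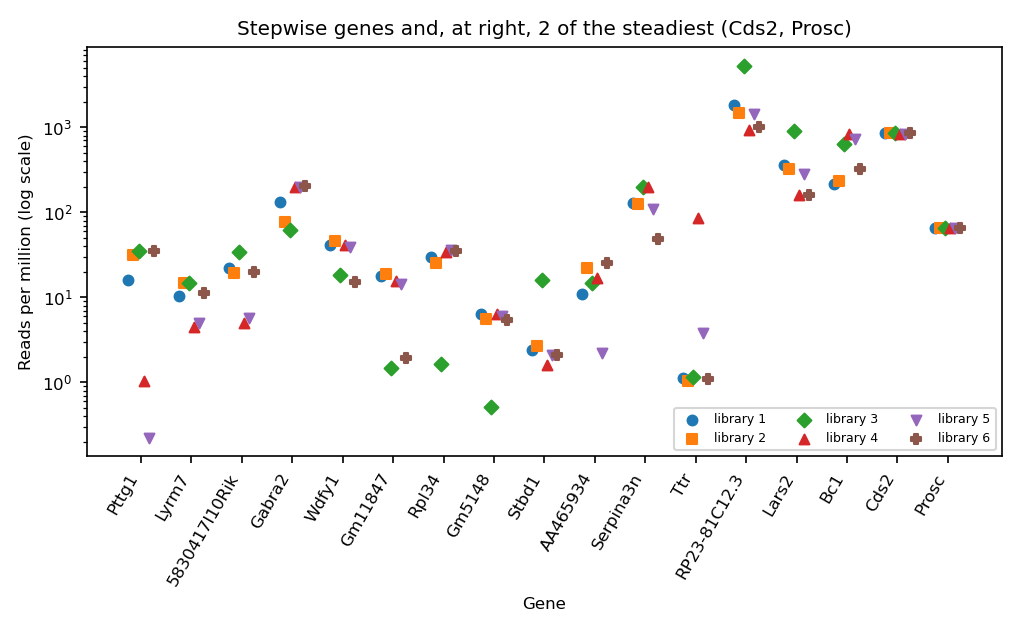
CPM (log scale) of 15 genes that differ in steps or strongly between libraries and, at the right, of the steady genes Cds2 and Prosc, with 1 symbol per library. Libraries 4 and 5 are low for Pttg1, Lyrm7 and 5830417I10Rik, library 3 is low for Rpl34 and Gm5148, and library 4 is high for Ttr.

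Some near-identical genes varied in opposite directions. Tpm3, a tropomyosin on chromosome 3, had 75.3, 70.1, 108, 43.5, 40.2 and 73.9 CPM in libraries 1 to 6, and its copy Tpm3-rs7 on chromosome 14 69.6, 67.1, 28.6, 102, 107 and 70.8. Where 1 was high the other was low, and their sum was nearly even, between 136.9 and 147 CPM with a CV of 3.13%, against 36.3 and 38.2% for the single genes. The coding sequences differ at 3 of 747 bases, all within the first 150, which are shown from GENCODE M21 on GRCm38, 5′ to 3′, with the differing bases in capitals.
Tpm3: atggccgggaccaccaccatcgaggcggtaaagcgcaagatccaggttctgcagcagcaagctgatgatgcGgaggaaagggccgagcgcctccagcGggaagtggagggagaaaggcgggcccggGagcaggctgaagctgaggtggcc
Tpm3-rs7: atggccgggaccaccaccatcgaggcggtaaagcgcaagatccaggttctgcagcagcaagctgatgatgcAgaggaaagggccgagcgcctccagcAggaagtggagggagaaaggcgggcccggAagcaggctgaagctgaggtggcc
Reads cannot be told apart where the letters are the same, so the level of each gene alone is uncertain.

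Ribosomal protein genes did so in library 3. Rps3a1 had 100.2, 105, 55.2, 101, 99.2 and 105 CPM and its processed pseudogene Rps3a3 8.69, 5.14, 60.5, 9.29, 10.4 and 9.99. Together with Rps3a2 they summed to 141 to 156 CPM with a CV of 3.63%. Rplp0, of the ribosomal stalk, had 129.6, 106, 51.3, 152, 145 and 149.9 CPM, and its pseudogenes Gm8730 and RP23-463F7.8 had 13.9, 10.7, 48.2, 16.0, 15.9 and 15.3 and 14.1, 15.0, 40.8, 14.3, 14.3 and 16.4. Here the sum kept a CV of 13.6%. The stretches of 150 coding bases in which the copies differ most are shown for both families, again with differing bases in capitals. They are bases 214 to 363 of the Rps3a1 coding sequence and 154 to 303 of that of Rplp0.
Rps3a1: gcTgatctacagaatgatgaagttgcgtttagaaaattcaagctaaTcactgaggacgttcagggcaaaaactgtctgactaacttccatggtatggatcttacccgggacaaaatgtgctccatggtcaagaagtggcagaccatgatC
Rps3a3: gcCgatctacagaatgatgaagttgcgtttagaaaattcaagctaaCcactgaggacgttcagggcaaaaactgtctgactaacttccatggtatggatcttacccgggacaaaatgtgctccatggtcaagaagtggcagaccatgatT
Rplp0: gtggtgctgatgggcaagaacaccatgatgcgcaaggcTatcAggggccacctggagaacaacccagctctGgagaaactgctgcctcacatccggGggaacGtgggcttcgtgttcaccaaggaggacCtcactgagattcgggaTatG
Gm8730: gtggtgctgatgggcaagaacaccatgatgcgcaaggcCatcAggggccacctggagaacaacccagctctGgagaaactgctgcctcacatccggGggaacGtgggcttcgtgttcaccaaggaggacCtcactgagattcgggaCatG
RP23-463F7.8: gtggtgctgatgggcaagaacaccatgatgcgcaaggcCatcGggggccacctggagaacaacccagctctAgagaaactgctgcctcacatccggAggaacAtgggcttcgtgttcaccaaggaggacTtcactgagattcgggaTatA
Over the aligned coding bases Rps3a3 matched Rps3a1 at 98.9% of 795, and Gm8730 and RP23-463F7.8 matched Rplp0 at 98.7 and 97.5% of 954.

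Hspa8 varied also in sum with its copy. This constitutive chaperone of the HSP70 family had 399, 175, 177, 173, 169 and 628 CPM, high in libraries 1 and 6. Its copy Gm8355 had 76.6, 61.7, 77.8, 74.9, 71.7 and 71.9 CPM, and the sum of both had a CV of 53.1%. The pseudogene Gm15459, which has no entry in GENCODE M21 and was not searched for likeness, had 59.6, 88.4, 91.6, 87.1, 96.8 and 19.8 CPM, lowest in libraries 1 and 6, and its part in the levels of Hspa8 was not tested. Of the 23 ranked genes of the heat shock list, 8 were highest in library 1 and 5 in library 6, against 17.7 and 13.6% of all ranked genes. Hsp90ab1 stayed between 1753 and 1825 CPM, Hspa5 of the endoplasmic reticulum between 192 and 224, and the mitochondrial Hspd1 between 138 and 147.

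**Figure D5:**
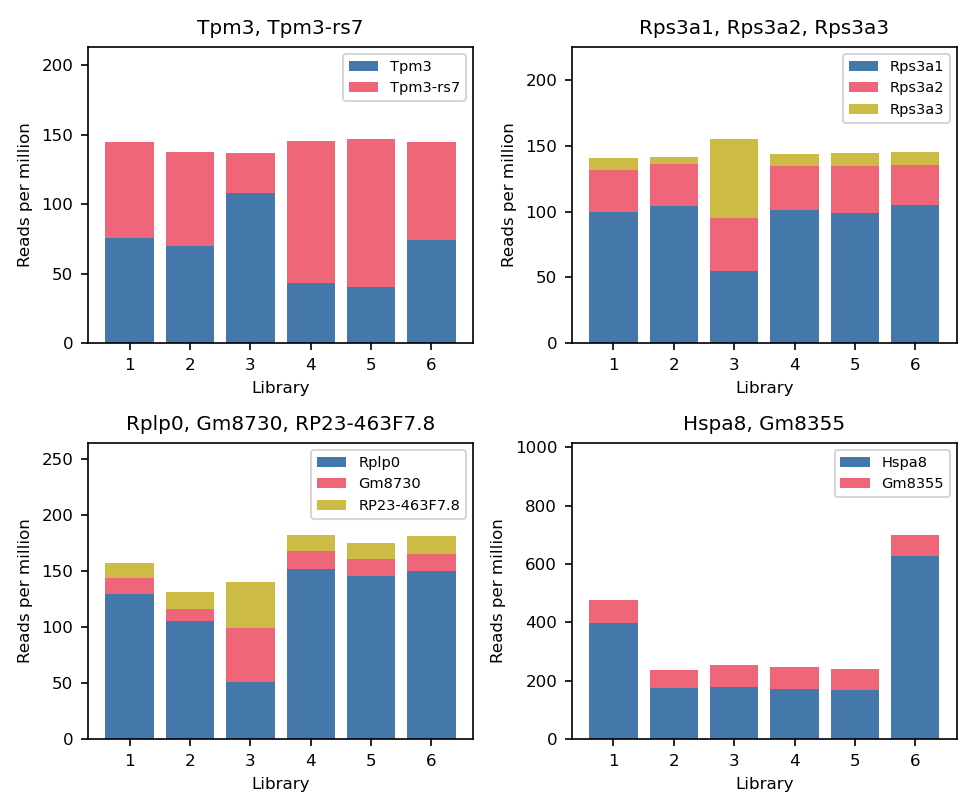
Stacked CPM of near-identical genes in libraries 1 to 6 for 4 families, each bar starting at 0. The members of the Tpm3 and Rps3a families change places while their sums stay nearly level, the Rplp0 sum is less even, and the Hspa8 sum is highest in libraries 1 and 6.

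The same genes tended to vary in libraries that the ranking had not used. Of the variable set, 83 of the 98 genes ranked among control novelty libraries lay in the most variable 10% of all genes there (84.7%), as did 96 of 100 among naive knockout libraries (96.0%) and 96 of 98 among novelty knockout libraries (98.0%). In the top 100 of those groups were 36, 40 and 49 of them, and 21 genes were in the top 100 of all 4 groups. The shares were not compared with those of other genes of like level, so the part of low counts was not tested. Over all genes the agreement was weaker, with Spearman rho of 0.348, 0.376 and 0.407 across genes. Single genes, chosen after their values were seen, were followed in the same libraries. Pttg1 lay under the middle of its gap in 3 of 18 other libraries, all of them novelty knockouts, and ranged from 0.284 to 35.4 CPM. Gabra2 ranged from 58.1 to 213 CPM, and Hspa8 from 162 to 673. Tpm3 had CVs of 23.2 to 46.9% in the other groups, while its sum with Tpm3-rs7 had 2.36 to 3.16%. In contrast AA465934 was low in none of the 18 (12.1 CPM or more), and Ttr did not exceed 11.5 CPM in any of them.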

How the data were processed

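Polyadenylated RNA of dissected CA1 was sequenced, per the labels' protocols with a TruSeq RNA kit, which does not mark the strand. The protocols name cluster kits for paired-end and for single-end runs and do not assign them to libraries. For each library the authors deposited the unnormalized counts of reads per gene. The submitters' processing notes name the build GRCm38.p2 and the tools HTSeq, DESeq2 and STAR 2.3.0 without their roles. Neither the strand setting nor the annotation release of the counting was given in the sources used here. The authors also deposited 4 tables of group comparisons that hold, per the file headers, base means (a signal of normalized counts), log2 fold changes and p-values, and only their gene names, coordinates and biotypes were used. Counts in 5 summary entries were left out of the library sizes. Of all counts per library, 7.8 to 9.95% fell in no gene, 1.06 to 1.17% were ambiguous and 15.8 to 18% matched more than 1 place. No mitochondrially encoded gene is listed, so these were not analysed here.

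From the counts, CPM on total assigned reads, sums over gene lists and excess CVs were computed with Python 3.11.15, numpy 2.4.6 and pandas 2.3.3. Lengths, GC content and biotypes came from GENCODE M21 on GRCm38, which held 36602 of the 38355 genes (the others took 0.312% of reads). Near-identical copies came from blastn 2.17.0 among its transcripts (at least 95% identity over 300 bases). Only the longest transcript of each ranked gene was searched with, so copies of other transcripts can be missed. Scaling factors and edgeR's biological CV used R 4.3.3, edgeR 4.0.16 and DESeq2 1.42.0. The excess CV was tried on simulated counts in which each gene varied independently. These held no GC trend, steps or exchange between copies, so they cannot show how the ranking handles such patterns. No contrast exists within 1 group, so no test between groups was run, and SDs cover only the spread between these libraries, which may be technical. No pair of libraries looked like repeat deposits of 1 library: the median chi-square of a pair over genes was 1.43 to 4.03 times that expected from counting alone. No per-sample column was left out of use.

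Genes were named by rule: the 30 highest by CPM and per kb, the 10 highest noncoding genes, the 30 with the largest excess CV (mean count of 50 or more, without predicted models and pseudogenes), the 10 with the smallest CV at a mean count of 1000 or more, and members of 43 lists. Genes with steps, copies of other genes and the genes followed in the other groups were chosen after their values were seen. Members and lists were chosen with earlier results of these data known. Of 775 list entries, 765 were matched. Alternatives were TMM, DESeq2 and upper quartile scaling, each library left out, other count minimums, edgeR's CV, medians, other lengths and biotypes and log-scale marker means. Removing the GC trend and leaving out libraries 2 and 3 together were added after seeing the data. Some genes that the rule names are not reported here. All 6 promoter symbols sought were matched in RefSeq.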

Additional observations from a re-analysis of the deposited data

Results flagged for a closer look

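In 11 of 133 quantities checked, 1 library lay apart from the other 5 by a larger part of the whole range than Dixon's 95% critical value for 6 samples, which chance exceeds in about 1 in 20 groups. This rate does not hold for Ttr, Stbd1, Lars2, Rpl34 and Cdh24, which were among the genes checked because they vary most, and Ttr is itself on the choroid plexus list. In library 3, RP23-81C12.3 reached 5312 CPM (939 to 1817 in the others), which made the share of the top gene 0.531% (0.388 to 0.424%), and Lars2 reached 909 CPM (158 to 364). Stbd1 reached 16.1 CPM there (1.61 to 2.71), and Rpl34 was at 1.67 CPM (25.3 to 35.8). In library 4, Ttr was at 86.6 CPM (1.03 to 3.79), and the choroid plexus list summed to 118 CPM (25.9 to 32). In library 2, the genes of lowest GC content lay 0.184 above their mean over the libraries on the log2 scale (-0.064 to 0.016 in the others), and Gpm6a, a neuronal membrane glycoprotein, was at 2247 CPM (1759 to 1925). In library 6, the clock genes summed to 1444 CPM (1531 to 1559), and Cdh24 was at 17.3 CPM (6.35 to 8.17).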

How the results depend on the processing

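No paired analysis was possible because 1 group was described and no groups were compared. Of 499 alternative values of the main results, 491 stayed within 1 SD or 1.5 times of the reported value, as did 445 of 476 values of single genes and of the library in which a list was highest. Part of the first count was fixed in advance. Leaving out 1 of 6 libraries cannot move a mean by 1 SD, the limit set for list sums and shares of reads. The choroid plexus list fell from 43.7 to 28.8 CPM without library 4 and still counted as unmoved. With the deposited biotypes, protein-coding genes took 97.6% of reads instead of 97.3%. Genes with an excess CV over 20% numbered 633, but 1603 with a minimum mean count of 10, 260 with a minimum of 200 and 273 by the biological CV of edgeR. The 100 most variable genes kept 24 members at a minimum of 10 and 44 at a minimum of 200, and 60 without libraries 2 and 3 together, where the median excess CV was 4.2% instead of 6.55%. Leaving out each library in turn gave medians of 4.64 to 6.89%, the lowest without library 2, 469 to 763 genes over 20%, and 74 to 88 of the 100 kept. Among the 30 most variable genes named, Ttr without library 4, Stbd1, Tmem215 and Cd109 without library 3, Fmod without library 1 or 3 and Aldh1a2 without library 1, 3 or 4 gave no value, since their mean counts fell under 50. With the linear GC trend removed the median was 4.93%, 433 genes exceeded 20% and 83 of the 100 were kept. The cause of these differences was not tested, beyond the number of genes ranked, which the count minimum sets. Depth limits the low genes most in library 2, with 10700954 assigned reads.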
